A study of Mus musculus with 6 samples.

Results

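*Foxp3* and the 5 genes of the Ikaros family, *Ikzf1* to *Ikzf5*, were followed through bulk RNA sequencing of splenic T cells of C57BL/6 mice, an inbred laboratory strain. The genes were taken by symbol from the deposited tables, and their 75 transcript entries are among 129299 entries of 45777 genes. The cells came from female mice 7 weeks of age and were separated into CD4+Lrig1+ and CD4+Lrig1- T cells by a surface protein, Lrig1. No gene was altered and no agent was given, and Lrig1 on the surface is what divides the groups. The groups are written Lrig1+ and Lrig1- cells from here. The data used are 2 Lrig1+ and 2 Lrig1- libraries in 2 tables with 1 library of each group, called set 1 and set 2 here. The labels do not tie a library to a mouse or say whether mice were pooled, so p-values measure only the spread between these samples, which may be technical.

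Foxp3 is the forkhead transcription factor that specifies regulatory T (Treg) cells, and mice without a working *Foxp3* die of autoimmunity. The Ikaros family are zinc finger proteins that bind DNA through one set of fingers and pair with each other through another. Ikaros (*Ikzf1*) is needed to form lymphocytes, Helios (*Ikzf2*) and Eos (*Ikzf4*) are the members known for Treg cells, Aiolos (*Ikzf3*) is known for B cells and helper T cells, and Pegasus (*Ikzf5*) is the most distant relative.

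The libraries held from 44865070 to 59977951 estimated counts. *Lrig1*, the gene of the sorted protein, had 42.5 and 23.7 FPKM (fragments relative to transcript length and library size) in the Lrig1+ libraries of set 1 and set 2, and 14.6 and 6.24 FPKM in the Lrig1- libraries. *Cd4* lay between 924 and 1100 CPM (counts scaled to library size, here by the TMM method) in all 4. The 10 B cell markers summed to 77.4 and 96.9 CPM in the Lrig1- and Lrig1+ libraries of set 1 and to 767 and 388 CPM in those of set 2, so set 2 held more B cell transcripts. The 6 NK cell markers summed to 17.6 and 44.3 CPM in the Lrig1+ and 60.3 and 158 CPM in the Lrig1- libraries. The summed markers of CD8 T, myeloid, plasmacytoid dendritic, plasma and erythroid cells were each higher in both libraries of set 2 than in those of set 1, and reached at most 219 CPM. Their part in the results was not tested. Set 2 also held relatively fewer counts on long transcripts. The 3042 tested genes with a mean transcript length of 5000 bases or more had a median log2 ratio of set 1 over set 2 of 0.93 in Lrig1+ and 0.81 in Lrig1- cells, and the 5699 genes under 2000 bases had -0.64 and -0.67. Comparisons between the groups are therefore given within each set first.

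The genes lie on 5 chromosomes of GRCm38, the mouse build that the submitters' processing notes name. *Foxp3* (gene ID 20371) runs from 7579676 to 7595243 on the plus strand of chromosome X, and *Ikzf1* (gene ID 22778) from 11684962 to 11772930 on the plus strand of chromosome 11. *Ikzf2* (gene ID 22779, chromosome 1, 69531207 to 69687351), *Ikzf3* (gene ID 22780, chromosome 11, 98464610 to 98546031), *Ikzf4* (gene ID 22781, chromosome 10, 128630839 to 128669671) and *Ikzf5* (gene ID 67143, chromosome 7, 131388649 to 131410518) lie on the minus strand. No stretch of 50 bases, the read length, occurred in transcripts of more than 1 of the 6 genes. Of the stretches in *Foxp3* transcripts, 14.7% also occurred in *Flicr*, a noncoding RNA that overlaps its start on the same strand, and 12.9% of those of *Ikzf5* also occurred in *Gm10356*, so reads there could be split.

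The deposited transcripts of *Foxp3* begin at 2 sites, and those of *Ikzf1* at 3 groups of sites, where sites at most 500 bases apart were put in 1 group. The sequences just before these sites are shown because the use of start sites is measured below. They were taken from RefSeq on GRCm38.p6, plus strand, 5′ to 3′. The lines are the 30 bases around a TATA motif 32 bases before the upstream start site of *Foxp3* (chrX:7579632-7579661, motif in capitals), the 250 bases before its downstream start site (chrX:7580233-7580482, inside the first intron of the transcripts from the upstream site) and the 194 bases before the farthest downstream start group of *Ikzf1* (chr11:11689927-11690120, intronic).
Foxp3, upstream start: ttttcttctcggTATAAAagcaaagttgtt
Foxp3, downstream start: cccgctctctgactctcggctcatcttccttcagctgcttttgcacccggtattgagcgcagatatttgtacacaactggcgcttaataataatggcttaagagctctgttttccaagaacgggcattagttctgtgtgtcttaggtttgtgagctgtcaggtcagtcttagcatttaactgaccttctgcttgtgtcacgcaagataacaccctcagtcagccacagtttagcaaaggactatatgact
Ikzf1, downstream start: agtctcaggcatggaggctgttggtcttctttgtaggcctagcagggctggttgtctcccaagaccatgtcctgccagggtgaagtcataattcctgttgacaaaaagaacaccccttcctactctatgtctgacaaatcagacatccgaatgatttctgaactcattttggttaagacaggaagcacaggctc

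The motif TATAAA, searched on both strands, occurred 1 time in the 250 bases before the upstream start of *Foxp3* and 0 times before the downstream start. It occurs in 12.4% of the 32851 RefSeq promoters of this length. The 250 bases before the upstream start held 37.6% G and C and those before the downstream start 46.0%, against a median of 52.4% over all promoters. For *Ikzf1* it was 82.0% before the start at 11685925, the last of its middle group, and 47.6% before the start at 11690177, the last of its farthest downstream group. Both of these windows also hold earlier starts of their groups. The letters GGGAA, the core to which Ikaros proteins bind, were found before neither *Foxp3* start on either strand. They occur in 56.2% of promoters, so a match or its absence describes the window and no more.

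*Foxp3* was the most abundant of the 6 genes per length in both Lrig1+ libraries. It had 589 CPM in set 1 and 615 CPM in set 2 in Lrig1+ cells, and 48.9 and 30.7 CPM in Lrig1- cells. The Lrig1+ libraries were alike and the Lrig1- libraries differed by a log2 value of 0.67 between sets. Lrig1- cells thus kept 8.31% of the Lrig1+ level in set 1 and 4.98% in set 2, folds of 12.0 and 20.0. In RNA from many cells, fewer cells that express a gene and less RNA per cell cannot be told apart.

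*Ikzf2*, which encodes Helios, showed the next largest difference. Lrig1+ cells had 637 CPM in set 1 and 266 CPM in set 2, and Lrig1- cells had 56.3 and 17.9 CPM. The fold was 11.3 in set 1 and 14.8 in set 2, although both groups had more *Ikzf2* in set 1, by log2 values of 1.26 and 1.65. *Ikzf4*, which encodes Eos, a corepressor partner of Foxp3, had 129 and 65.6 CPM in Lrig1+ cells and 20.6 and 8.79 CPM in Lrig1- cells. Its fold was 6.25 in set 1 and 7.43 in set 2. For *Foxp3*, *Ikzf2* and *Ikzf4* each Lrig1+ library exceeded each Lrig1- library, a separation in this direction that 14.3% of the 16123 tested genes showed.

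*Ikzf1*, the family's founding member, went the other way. It had 904 and 1194 CPM in Lrig1- cells against 569 and 580.2 CPM in Lrig1+ cells, so it was lower by 1.59-fold in set 1 and 2.06-fold in set 2. Both Lrig1+ libraries lay below both Lrig1- libraries, as was so for 11.8% of tested genes. B cells also express *Ikzf1*, and the summed B cell markers were higher in the Lrig1- library of set 2 (767 against 388 CPM) but not of set 1 (77.4 against 96.9 CPM), where *Ikzf1* differed by a log2 ratio of -0.67. *Cd79a*, a signalling chain of the B cell receptor, was at no more than 11.2 CPM in either library of set 1. Of the 10 B cell markers, 7 were lower in Lrig1+ cells in both sets and 0 were higher in both. Whether B cells had a part in the difference of *Ikzf1* in either set was not tested.

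*Ikzf3*, which encodes Aiolos, had 330 CPM in Lrig1+ and 297 CPM in Lrig1- cells of set 1, and 127 and 97.9 CPM in those of set 2. It was higher in Lrig1+ cells in both sets, by log2 ratios of 0.15 and 0.37, while the sets differed by 1.38 and 1.60. The groups overlapped, since the Lrig1- library of set 1 was above the Lrig1+ library of set 2. *Ikzf5* had 40.3 and 26.5 CPM in Lrig1+ against 46.7 and 35.3 CPM in Lrig1- cells, log2 ratios of -0.21 and -0.41, and its groups overlapped too. Of all tested genes, 36.5% were higher and 41.3% lower in both sets, so a shared sign alone was common. The mean transcript length behind the counts was 9457 bases for *Ikzf2*, 7184 for *Ikzf3* and 5327 for *Ikzf4*, the 3 genes with more counts in set 1 by at least 0.98 in log2 in both groups. It was 5095 for *Ikzf1*, 4413 for *Ikzf5* and 3764 for *Foxp3*. *Ikzf1*, close to *Ikzf4* in length, had log2 values of set 1 over set 2 of -0.03 in Lrig1+ and -0.40 in Lrig1- cells, and *Ikzf5* had 0.60 and 0.41. The part of transcript length in the differences between sets was not tested.

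**Figure D1:**
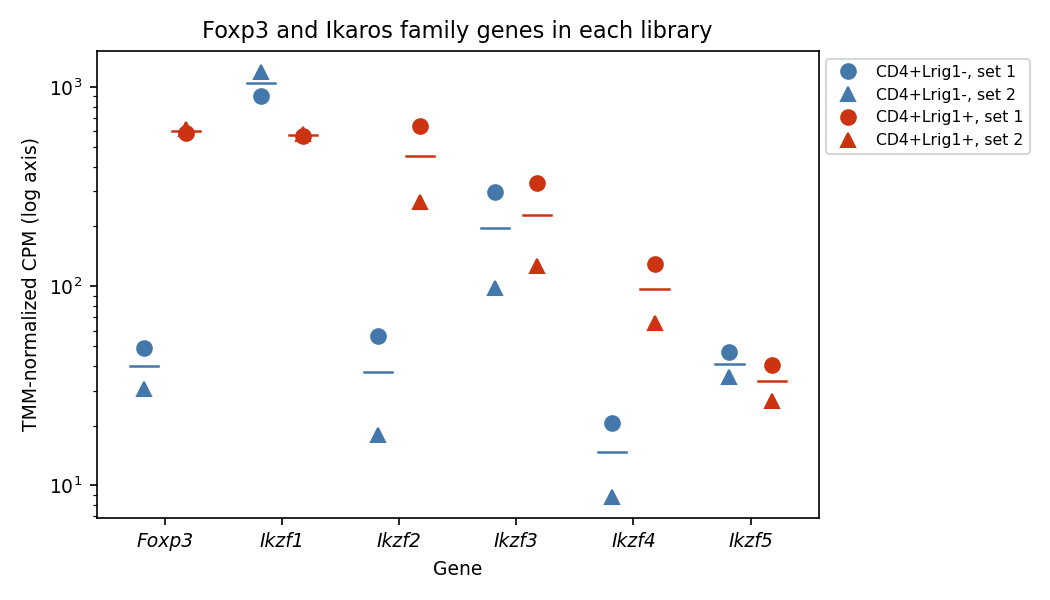
TMM-normalized CPM of *Foxp3* and *Ikzf1* to *Ikzf5* on a log axis, with 1 point for each library and a line at the mean of each group (n = 2). The Lrig1+ points of *Foxp3*, *Ikzf2* and *Ikzf4* sit above, and those of *Ikzf1* below, the Lrig1- points, and the points of *Ikzf3* and *Ikzf5* overlap between the groups.

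Over all 4 libraries, none of the 6 genes passed edgeR's quasi-likelihood test. *Foxp3* had 602 ± 18.9 CPM (SD, n = 2) in Lrig1+ and 39.8 ± 12.9 CPM (n = 2) in Lrig1- cells, a log2 fold change of 3.92 (standard error 0.45, adjusted p = 0.562). That adjusted p was the smallest in the test and was shared with other genes, among them *Il2ra* and *Nrp1*. The test called 0 genes in either direction (0%), while 4.03% had an unadjusted p under 0.05 and were higher and 1.33% were lower. *Ikzf2* had 451.5 ± 263 CPM (SD, n = 2) against 37.1 ± 27.15 CPM (n = 2), a log2 fold change of 3.61 (standard error 0.88, adjusted p = 0.716). *Ikzf4* had 97.3 ± 44.9 CPM (SD, n = 2) against 14.7 ± 8.37 CPM (n = 2), a log2 fold change of 2.73 (standard error 0.66, adjusted p = 0.716). The unadjusted p of the edgeR test was 0.000949 for *Foxp3*, 0.0158 for *Ikzf2* and 0.0153 for *Ikzf4*. *Ikzf1*, *Ikzf3* and *Ikzf5* had log2 fold changes of -0.87, 0.21 and -0.29 and an adjusted p of 1.0 each in the edgeR test. Without the Lrig1+ library of set 1 the value of *Ikzf3* was -0.63, and without the Lrig1- library of set 2 it was -0.38. The smallest p that an exact permutation test of 1 gene can give in this design is 0.333.

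When the table that holds a library was a term in the same edgeR test (the table block), 3 of the 6 genes were called higher and 2 lower in Lrig1+ cells, where 14.5% of all tested genes were called higher and 12.8% lower. *Ikzf2* rose by a log2 fold change of 3.69 (adjusted p = 6.5e-06, edgeR), *Ikzf4* by 2.77 (adjusted p = 6.53e-06, edgeR) and *Foxp3* by 3.95 (adjusted p = 0.000584, edgeR). *Ikzf1* fell by 0.85 on the log2 scale (adjusted p = 0.00201, edgeR). The sum of the 2 *Ikzf5* transcripts fell by 0.31 (adjusted p = 0.0407, edgeR), but by estimated FPKM its main transcript did not fall, as given below. *Ikzf3* was at 0.26 (adjusted p = 0.0544, edgeR). This fit has 1 residual degree of freedom. DESeq2's Wald test without the block called *Foxp3* (adjusted p = 3.7e-11), *Ikzf2* (adjusted p = 0.000757) and *Ikzf4* (adjusted p = 0.009), where it called 1.61% of genes higher and 0.31% lower, and with the block it called 11.7% higher and 12.5% lower. DESeq2 with the block did not call *Ikzf5* (-0.33, adjusted p = 0.0518).

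**Figure D2:**
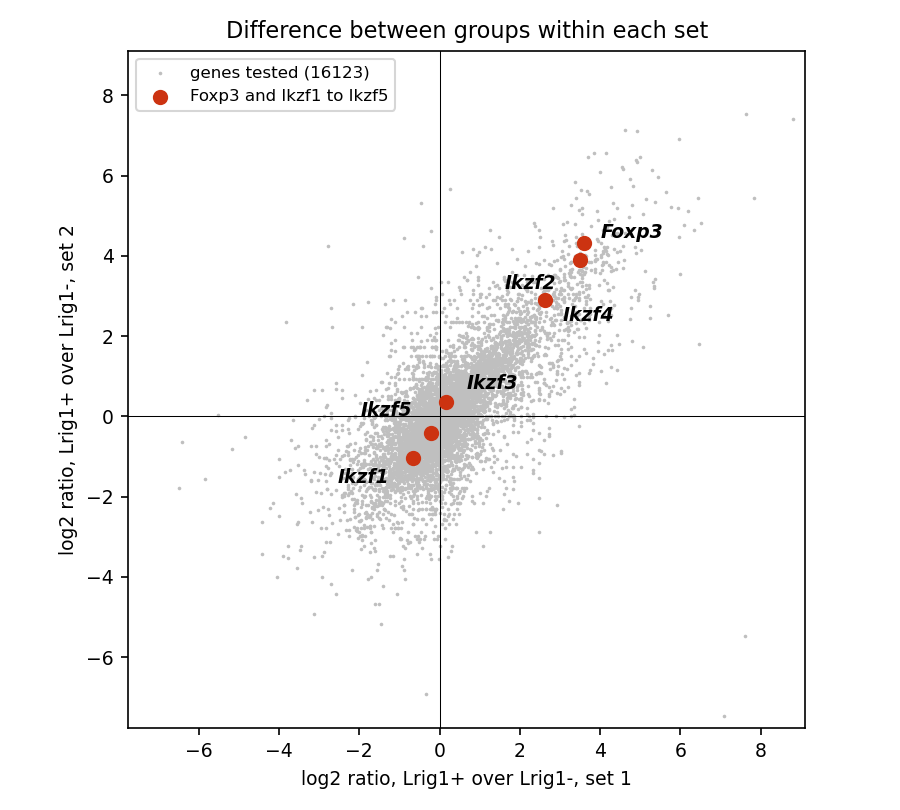
Log2 ratio of Lrig1+ over Lrig1- cells in set 1 (horizontal) and set 2 (vertical), 1 grey point for each of the 16123 tested genes and 1 red point for each of the 6 genes described. *Foxp3*, *Ikzf2* and *Ikzf4* lie far up the diagonal, at 3.59 and 4.33, 3.50 and 3.89, and 2.64 and 2.89, and *Ikzf1* lies below 0 on both axes.

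Ranked from the highest ratio over the 16123 tested genes, *Foxp3* was at place 179 in set 1 and 83 in set 2, *Ikzf2* at 198 and 137, and *Ikzf4* at 445 and 367. *Ikzf1* was at place 14712 and 14881, in the lower part of the ranking but not at its end. *Ikzf3* was at place 5743 and 3354 and *Ikzf5* at 11826 and 12405, in the broad middle.

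Per length, the order of the 6 genes was the same in both sets within each group and differed between the groups. In Lrig1- cells *Ikzf1* led with 169.8 and 199 FPKM in set 1 and set 2, followed by *Ikzf3* (47.7 and 16.9 FPKM), *Foxp3* (12.5 and 6.87 FPKM), *Ikzf5* (10.2 and 6.70 FPKM), *Ikzf2* (5.77 and 1.59 FPKM) and *Ikzf4* (3.78 and 1.09 FPKM). The ranges of *Foxp3* and *Ikzf5*, and of *Ikzf2* and *Ikzf4*, overlapped, and the other neighbours in this order were apart. In Lrig1+ cells *Foxp3* led with 150.5 and 148 FPKM, followed by *Ikzf1* (108 and 103 FPKM), *Ikzf2* (64.7 and 25.5 FPKM), *Ikzf3* (52.4 and 21.5 FPKM), *Ikzf4* (23.5 and 11.4 FPKM) and *Ikzf5* (8.82 and 5.45 FPKM). There the ranges of *Ikzf2* and *Ikzf3*, and of *Ikzf3* and *Ikzf4*, overlapped. *Foxp3* was thus the third gene in Lrig1- and the first in Lrig1+ cells, and *Ikzf2* the fifth and the third.

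The make-up of the Ikaros family also differed between the groups. *Ikzf1* made up 71.6% and 88.3% of the summed FPKM of the 5 Ikaros genes in Lrig1- cells of set 1 and set 2, and 42.0% and 61.7% in Lrig1+ cells. The share of *Ikzf2* was 2.43% and 0.708% in Lrig1- against 25.1% and 15.3% in Lrig1+ cells, and that of *Ikzf4* was 1.6% and 0.484% against 9.11% and 6.83%. *Ikzf3* held 20.1% and 7.52% in Lrig1- and 20.4% and 12.9% in Lrig1+ cells. The sum itself was 237 and 225 FPKM in Lrig1- and 257.5 and 166.5 FPKM in Lrig1+ cells, with no common direction. The level of *Ikzf2* was 0.598 and 0.248 of the level of *Ikzf1* in FPKM in Lrig1+ cells and 0.0340 and 0.00801 of it in Lrig1- cells. The ratio of *Ikzf2* to *Ikzf4* was 2.76 and 2.24 in Lrig1+ and 1.52 and 1.46 in Lrig1- cells.

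**Figure D3:**
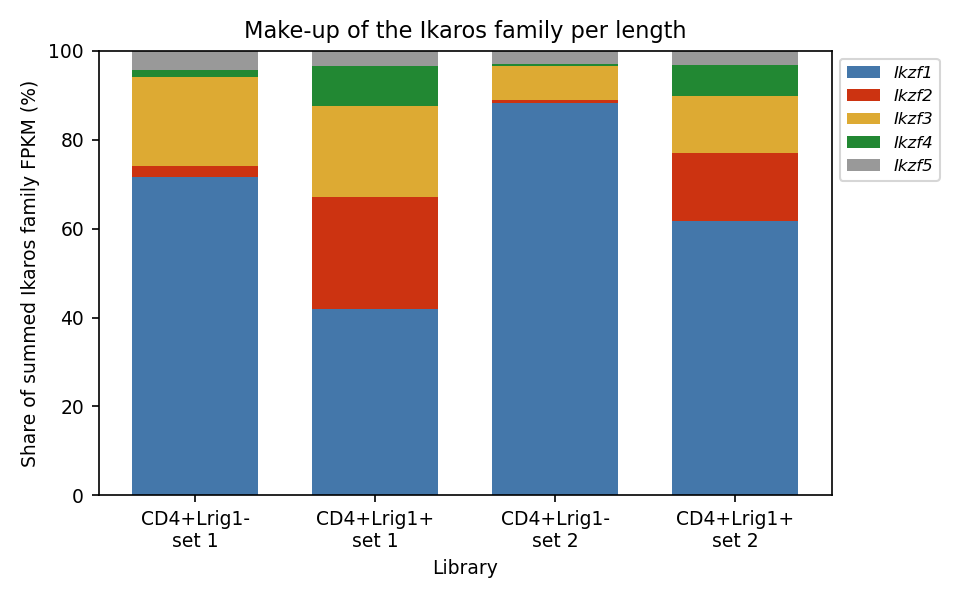
Share of each Ikaros family gene in the summed FPKM of the 5 genes, in percent, 1 bar for each library. *Ikzf1* takes 71.6% and 88.3% of the Lrig1- bars and 42.0% and 61.7% of the Lrig1+ bars, and *Ikzf2* takes the largest part of the difference.

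Few single transcripts went against their gene in both sets, but many did not share its direction in both. Of 33 transcripts of *Ikzf1*, 21 had lower FPKM in Lrig1+ cells in both sets and 0 had higher FPKM in both. Of 17 transcripts of *Ikzf2*, 8 were higher in both sets and 0 lower, and of 16 of *Ikzf4*, 6 were higher and 0 lower, with 5 at 0 in every library. *Ikzf3* had 3 of 4 transcripts higher in both sets, *Foxp3* 2 of 3, and *Ikzf5* 1 higher and 1 lower. The transcripts of a gene share most of their exons, and the split between them is StringTie's estimate.

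*Foxp3* came almost wholly from its upstream start, which held 98.6% and 100% of its FPKM in Lrig1- and 97.9% and 98.6% in Lrig1+ cells. The downstream start had 33 and 0 estimated counts in Lrig1- and 628 and 473 in Lrig1+ cells. The overlapping *Flicr* had 13.4 and 10.3 CPM in Lrig1+ against 0.982 and 1.93 CPM in Lrig1- cells. *Ccdc22*, which overlaps the 3′ end of *Foxp3* on the other strand, had 23.3 and 22.3 CPM in Lrig1+ against 39.7 and 45.0 CPM in Lrig1- cells, lower where *Foxp3* was higher. The libraries were made with a stranded kit, and whether the counting used strand is not given in the sources used here. *Flicr* and *Ccdc22* are named for their overlap with *Foxp3* and were picked after their values had been seen.

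*Ikzf2* was the gene whose start sites differed most between the groups. The 5 transcripts from the farthest upstream group held 46.2% and 60.8% of its FPKM in Lrig1+ cells of set 1 and set 2, and 15.4% and 2.93% in Lrig1- cells. Their counts were 15215 and 9283 against 414 and 31. In FPKM this group was higher by 33.6-fold in set 1 and 332-fold in set 2. The fold of set 2 divides by 0.0467 FPKM, from 31 counts of 1 transcript that had 0 counts in the Lrig1+ library of set 2. In that Lrig1- library 14 of the 17 *Ikzf2* transcripts were at 0, so the fold is near the floor of the estimate. The 8 transcripts that start from 69685864 to 69686151 on chromosome 1 were higher by 7.27-fold and 6.46-fold. The rest of *Ikzf2*, 4 transcripts, held 1.57% to 4.01% in set 1 and 0 in set 2. These shares are descriptions of 2 libraries a group and were not tested.

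Other genes showed smaller or less regular shifts. The farthest downstream start group of *Ikzf1*, printed above, held 61.9% and 56.0% of its FPKM in Lrig1+ and 47.6% and 71.6% in Lrig1- cells, up in set 1 and down in set 2. All 3 start groups of *Ikzf1* had less FPKM in Lrig1+ cells in both sets, with ratios from 0.404 to 0.898. The upstream group of *Ikzf3* held 70.7% and 81.7% in Lrig1+ and 71.7% and 88.4% in Lrig1- cells, so it followed the set. *Ikzf4* used its downstream group for 95.0% to 99.5% of FPKM in all 4 libraries, but the split within that group was unsteady. In the Lrig1- library of set 2, 1 transcript held 97.6% of FPKM and 14 of 16 were at 0. The same transcript held 1.63% in the Lrig1- library of set 1, and 4.35% and 0.081% in Lrig1+ cells. The main transcript of *Ikzf5* held 96.5% and 99.5% in Lrig1+ and 83.8% and 75.3% in Lrig1- cells. It had 8.51 and 5.43 FPKM in Lrig1+ against 8.50 and 5.05 FPKM in Lrig1- cells, so it was not lower. By StringTie's split, the fall of the *Ikzf5* sum lay in its other transcript, with 76 and 8 estimated counts in Lrig1+ against 376 and 485 in Lrig1- cells. How reliable this split is was not tested.

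**Figure D4:**
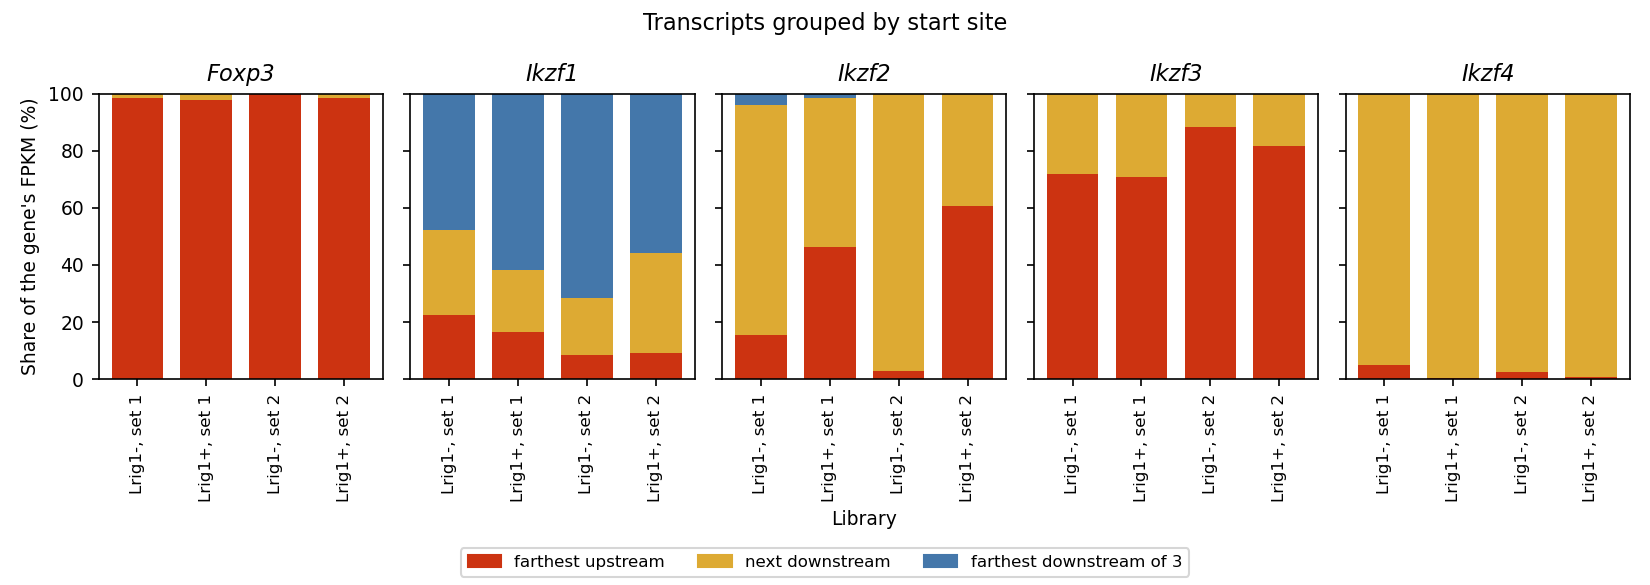
Share of each gene's FPKM held by transcripts grouped by start site, in percent, 1 bar for each library and 1 panel for each gene with more than 1 group. The red part, the farthest upstream group, is larger in the Lrig1+ bars of *Ikzf2* (46.2% and 60.8%) than in the Lrig1- bars (15.4% and 2.93%), and in *Foxp3* it fills nearly the whole bar in every library.

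Among 12785 genes with a mean count of at least 50, those most like *Foxp3* across the 4 libraries were *Il2ra*, *Synpo*, *Tiam1*, *Stra6* and *Fhdc1*, at Euclidean distances of 0.16 to 0.36 between log2 CPM values centred on each gene's mean. *Il2ra* encodes CD25, the high-affinity chain of the interleukin 2 receptor, and had 368 and 417 CPM in Lrig1+ against 31.1 and 17.8 CPM in Lrig1- cells. *Ikzf2* was at place 73 from *Foxp3* (distance 1.19) and *Ikzf4* at place 111 (distance 1.45). The genes most like *Ikzf2* were *Fbn2*, *Gm3696*, *Gm34828*, *Six5* and *Gm31718* (0.31 to 0.56), none of which passed 14.7 CPM in a library. Among those most like *Ikzf4* were *Arhgap20*, *Arhgef5*, *Cacna1d* and *Gm38906* (0.24 to 0.37). *Ikzf4* was at place 25 from *Ikzf2*, with a distance of 1.00, so these genes were closer to each other than either was to *Foxp3*. The points share 4 libraries and their 2 sets.

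The genes around *Foxp3* and the Ikaros family were judged with the table block, since the edgeR test without it called 0 genes. Of the other forkhead P genes 1 fell and 1 rose, where 12.8% of all tested genes fell and 14.5% rose. For both genes the groups overlapped. *Foxp1*, which keeps naive T cells quiescent, fell, at -0.37 in set 1 and -0.47 in set 2 on the log2 scale (adjusted p = 0.00702, edgeR with the table block). *Foxp4* rose with log2 ratios of 0.70 and 0.83 (adjusted p = 0.00038, edgeR with the table block). *Foxp2* was listed at 0 in all 4 libraries.

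Of 18 genes whose proteins are found with Foxp3, 5 rose, 4 fell and 9 were not called with the table block, which called 14.5% of all tested genes higher and 12.8% lower. Their median log2 ratios of 0.04 and 0.05 were near those of all tested genes (0.01 and -0.06). *Irf4*, a factor that Treg cells need to restrain helper T cell responses, had 97.4 and 82.0 CPM in Lrig1+ against 19.9 and 25.9 CPM in Lrig1- cells (adjusted p = 0.00086, edgeR with the table block). *Hif1a*, the hypoxia factor, rose with log2 ratios of 1.12 and 1.15, *Nfatc1*, a calcium-dependent factor, with 0.82 and 0.80, and *Gata3*, the factor of type 2 helper cells, with 0.65 and 0.61. *Irf4* alone of the 18 was also called by DESeq2 without the block (adjusted p = 0.00319).

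Of 15 factors that act at the *Foxp3* gene, 5 rose, 5 fell and 5 were not called with the table block (14.5% and 12.8% of all tested genes rose and fell), with median log2 ratios of -0.04 and -0.22. The nuclear receptors *Nr4a2*, *Nr4a3* and *Nr4a1*, which T cell receptor signals induce, rose with log2 ratios of 2.60, 0.95 and 0.64 in set 1 and 3.12, 1.33 and 0.87 in set 2. *Nr4a2* was scarce, at 16.4 and 6.55 CPM in Lrig1+ against 2.67 and 0.722 CPM in Lrig1- cells. *Satb1*, a genome organizer, had 355 and 226 CPM in Lrig1+ against 927 and 796 CPM in Lrig1- cells (adjusted p = 0.00018, edgeR with the table block). *Smad3*, which carries signals of TGF-β, had 102 and 84.2 CPM in Lrig1+ against 112 and 107 CPM in Lrig1- cells. It was not called (adjusted p = 0.0625, edgeR with the table block). *Smad4* fell with log2 ratios of -0.34 and -0.57 (adjusted p = 0.00645, edgeR with the table block), and *Smad2*, at -0.02 and -0.27, was not called.

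Of 12 enzymes of DNA methylation at the *Foxp3* locus and of Foxp3 turnover, 11 were tested, of which 2 rose, 4 fell and 5 were not called with the table block. Of all tested genes 14.5% rose and 12.8% fell, so the count of 2 that rose is near the background. *Tet1*, which removes DNA methylation, had 27.2 and 6.86 CPM in Lrig1+ against 59.9 and 22.4 CPM in Lrig1- cells. *Tet3*, its paralog, fell with log2 ratios of -0.47 and -0.86, and *Usp7*, which removes ubiquitin, with -0.39 and -0.36. *Uhrf1*, which maintains methylation after replication, rose from 7.52 and 10.7 CPM to 25.4 and 21.9 CPM.

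All 12 textbook genes that Foxp3 induces rose with the table block, where 14.5% of tested genes did, and 9 of them were called by DESeq2 without it. Their median log2 ratio was 2.91 in set 1 and 2.95 in set 2. *Nrp1*, a surface receptor of thymus-derived Treg cells, had 256 and 304 CPM in Lrig1+ against 23.2 and 24.9 CPM in Lrig1- cells. *Nt5e*, which makes adenosine, had 224 and 226 CPM against 34.2 and 29.1 CPM. *Ctla4*, an inhibitory receptor, and *Itgae*, an integrin chain, rose with log2 ratios of 3.26 and 3.64 and of 3.11 and 2.84. This list overlaps the genes the study itself chose to show from these samples, so it is not independent evidence of its direction.

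Of 11 textbook genes that are lowered in Treg cells, 6 fell, 3 rose and 2 were not called with the table block (12.8% and 14.5% of all tested genes fell and rose), with median log2 ratios of -0.65 and -0.76. The 2 that were not called also had ratios above 0 in both sets, so 5 of the 11 were higher in Lrig1+ cells in both. *Lef1* and *Tcf7*, partner factors of naive T cells, fell with log2 ratios of -1.13 and -1.65 and of -0.65 and -0.76. *Pde3b*, which breaks down cyclic AMP, had 64.9 and 42.8 CPM in Lrig1+ against 207 and 205 CPM in Lrig1- cells. The genes that rose were *Zap70* and *Ptpn22*, a kinase and a phosphatase of T cell receptor signalling, with log2 ratios of 0.49 and 0.54 and of 0.35 and 0.50, and *Il2*, the growth cytokine of T cells. *Il2* remained scarce, at 1.73 and 2.96 CPM in Lrig1+ against 0.418 and 0.352 CPM in Lrig1- cells.

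The partners of the Ikaros family were not called in these libraries. Of 15 subunits of the NuRD and Sin3 corepressors and CtBP, 0 were called in either direction by edgeR with the table block, without it or by DESeq2 without it. At an unadjusted p under 0.05 there were 4 with the block, where 39.3% of all tested genes had one, and 0 without it. Their median log2 ratios were 0.01 and -0.03. *Chd4*, the remodelling enzyme of NuRD, had 704 and 455 CPM in Lrig1+ against 725 and 458 CPM in Lrig1- cells. *Hdac1*, *Gatad2b*, *Hdac2* and *Mbd3* had log2 ratios between -0.32 and 0.26 and adjusted p from 0.0574 to 0.0825 (edgeR with the table block). Of 5 genes of the Cereblon ubiquitin ligase, to which drugs of the thalidomide class draw human Ikaros proteins, 0 were called by the same tests and 1 had an unadjusted p under 0.05 with the block. *Crbn*, its substrate receptor, had 94.7 and 125 CPM in Lrig1+ against 89.2 and 126 CPM in Lrig1- cells.

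**Figure D5:**
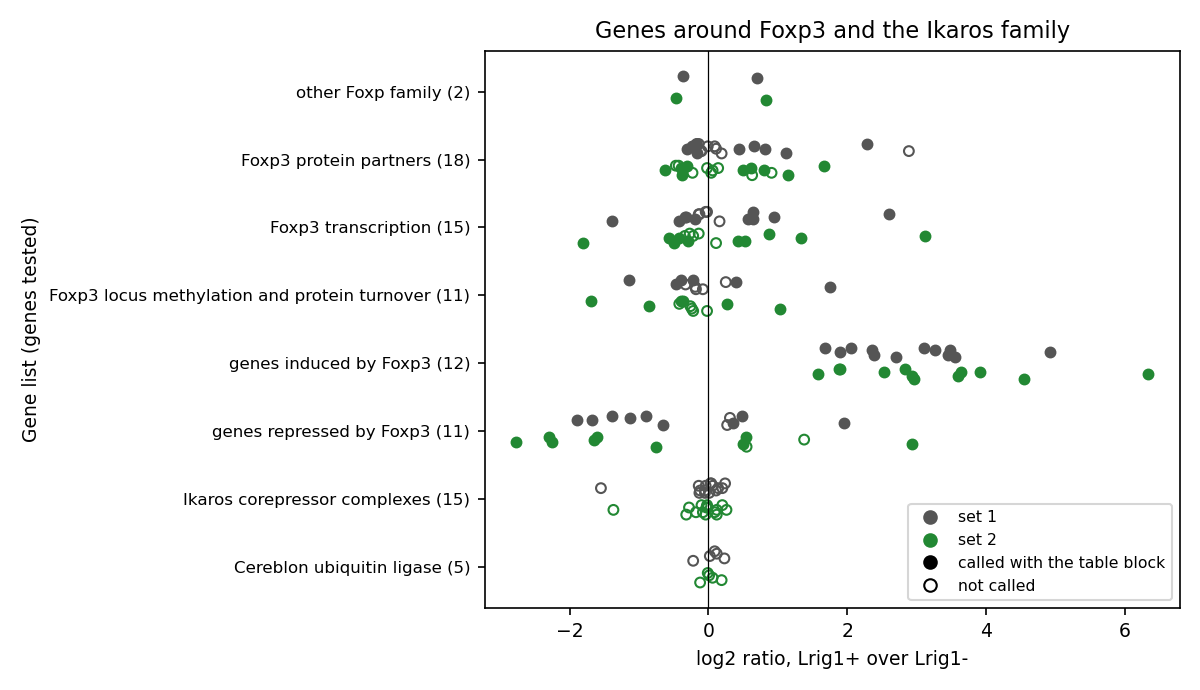
Log2 ratio of Lrig1+ over Lrig1- cells for the tested genes of 8 lists, grey in set 1 and green in set 2, filled where edgeR with the table block called the gene. The 12 genes induced by Foxp3 all lie to the right of 0, around medians of 2.91 and 2.95. The points of the Ikaros corepressors and of the Cereblon ligase are all open and, apart from *Ctbp2* at -1.55 and -1.37, lie close to 0. *Ctbp2* was scarce, at 0.0961 and 0.192 CPM in Lrig1+ against 0.355 and 0.555 CPM in Lrig1- cells.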

How the data were processed

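RNA of CD4+Lrig1+ and CD4+Lrig1- T cells was sequenced as paired reads of 50 bases. Per the submitters' notes and methods, the reads were trimmed (Trimmomatic 0.38), mapped (HISAT2 2.1.0) and assembled (StringTie 2.1.3b) on GRCm38. The estimated counts and FPKM values were made by the authors for each RefSeq transcript, and the counts are not normalized as deposited. The labels list 6 samples in 2 groups. The 4 libraries whose column names give the group were used, and 6 columns of a table that does not name it were not. The columns carry no replicate numbers.

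Counts were summed by gene symbol and rounded. Genes were filtered with filterByExpr, normalized by TMM and tested with edgeR 4.0.16 (quasi-likelihood, robust, R 4.3.3) at a Benjamini-Hochberg adjusted p under 0.05 over 16123 genes. A prior count of 2 was added for ratios within sets. Alternatives were the table block, DESeq2 1.42.0, its size factors, other filters, limma 3.58.1 on FPKM and leaving out each library. The script was tested on simulated counts. Promoters came from RefSeq and were held for 3 of the 6 genes. The genes, the lists and the bounds on transcript length were chosen with earlier results of these data known. The genes named from a list are those with the 4 smallest unadjusted p with the table block, and *Foxp1*, *Satb1*, *Smad3*, *Chd4* and *Crbn*. Chosen after their values were seen were *Foxp4*, *Foxp2*, *Il2*, *Ptpn22*, *Ctbp2*, *Smad4*, *Smad2*, *Cd79b* and *Cd22*. Of the 5 genes most like *Ikzf4*, 1 is not reported here.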

Additional observations from a re-analysis of the deposited data

How the results depend on the processing

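When the table block was left out of the edgeR test, 0 genes were called with TMM or DESeq2's size factors, with any filter on low counts, with or without robust estimation, and by limma on FPKM. With the table block 2342 genes were called higher and 2065 lower, without robust estimation 2358 and 2056, and with bias-adjusted deviances 2690 and 2541. DESeq2 called 260 and 50, and with the block 1848 and 1969. Under the 3 edgeR fits with the block the log2 fold changes were 3.95 for *Foxp3*, 3.69 for *Ikzf2*, 2.77, 2.77 and 2.76 for *Ikzf4*, -0.85 for *Ikzf1* and -0.31 for *Ikzf5*, all called. *Ikzf3* was called with bias-adjusted deviances alone (0.26, adjusted p = 0.0382, edgeR). DESeq2 called *Foxp3* (3.89), *Ikzf2* (3.57) and *Ikzf4* (2.69), and with the block *Foxp3* (3.94), *Ikzf2* (3.67), *Ikzf4* (2.75) and *Ikzf1* (-0.88). The fits without robust estimation and with bias-adjusted deviances were chosen after seeing the data. The cause of these differences was not tested.

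With each library left out in turn, the lone library of its group was assumed to vary like the other group. The genes called higher then ranged from 0 to 58, and those called lower from 0 to 1. The log2 fold change ranged from 3.62 to 4.34 for *Foxp3*, 2.85 to 4.69 for *Ikzf2*, 2.17 to 3.50 for *Ikzf4*, -1.01 to -0.65 for *Ikzf1*, -0.60 to -0.03 for *Ikzf5* and -0.63 to 1.26 for *Ikzf3*. *Foxp3* and *Ikzf2* were called without the Lrig1- library of set 1 (58 genes higher) and without the Lrig1+ library of set 2 (34 genes higher). *Ikzf3* reversed to -0.63 without the Lrig1+ library of set 1 and to -0.38 without the Lrig1- library of set 2. No paired analysis was possible by replicate number because the columns carry no replicate numbers, and the table block is not a pairing by number. The block pairs the libraries by table instead, since each table holds 1 library of each group. Whether the libraries of a table share mice is not given in the labels. With 2 libraries a group the precision is limited, and it also differed between fits of the same libraries. The standard error of *Ikzf2* was 0.876 in edgeR without the table block and 0.115 with it.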

Other observations

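The genes beside *Foxp3* and the Ikaros genes were picked by position after the data had been seen. *Flicr* was higher in Lrig1+ cells at log2 ratios of 3.72 (set 1) and 2.40 (set 2) (adjusted p = 0.00229, edgeR with the table block), and *Ccdc22* was lower by -0.77 and -1.01 (adjusted p = 0.000689, edgeR with the table block). On the other side of *Foxp3*, *Ppp1r3f* had log2 ratios of 0.14 and 0.38 and was not called (adjusted p = 0.113, edgeR with the table block).

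*Suox*, whose 3′ end lies 216 bases from the 5′ end of *Ikzf4*, had log2 ratios of 0.45 and 0.53 against 2.64 and 2.89 for *Ikzf4*, and *Rps26*, on its other side, had 0.15 and -0.12. *Fignl1*, 27358 bases from *Ikzf1*, had 4.31 and 6.86 CPM in Lrig1+ against 1.38 and 2.87 CPM in Lrig1- cells, while *Ikzf1* was lower. *Erbb4*, the left neighbour of *Ikzf2*, had 0 counts in all 4 libraries, and *Spag16*, its right neighbour, stayed under 1 CPM in all 4. *Acadsb*, 83 bases from *Ikzf5*, had log2 ratios of 0.11 and 0.11.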
